A study of Glycine soja with 14 samples.

Results

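Fatty acid desaturases are the enzymes that put double bonds into fatty acids, and they were followed here in root tips of wild soybean (Glycine soja, line G07256) over a day of alkaline stress. The members were the soybean probe sets whose only gene symbol in the array annotation starts with FAD and a digit or with SACPD, which gave 14 of the 37594 soybean probe sets and 9 distinct symbols. Roots were taken within the last centimetres behind the apex of seedlings in dilute Hoagland solution, before (0 h) and after 0.5, 1 and 3 h, then 6, 12 and 24 h, counted from transfer to the same solution with 50 mmol/L NaHCO3 at pH 8.5. Each time had 2 Affymetrix arrays from separate biological replicates, each a pool of several plants, and the 0 h roots are the unstressed control of every comparison. All groups share the line, the medium and the growth room. No unstressed root from a later hour was analysed here, so the time in NaHCO3 and the time of day cannot be told apart.

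Plants make fatty acids in the plastid and finish desaturating them along separate routes in the plastid and in the endoplasmic reticulum (ER). In the plastid, a soluble stearoyl-acyl carrier protein desaturase (SACPD) places the first double bond, FAD6 makes linoleate from oleate on plastid lipids, and FAD7 and FAD8 make linolenate from linoleate. In the ER, FAD2 and FAD3 carry out the same pair of steps on phospholipids. Linolenate is abundant in plastid membranes and is the starting material of jasmonate synthesis. By these roles 6 probe sets were placed in the plastid (SACPD-C, FAD6.1, FAD7-2 and FAD8.2, the last with 3 probe sets) and 8 in the ER (FAD2-1A, FAD2-2 and FAD3C with 2 each, FAD2-3, FAD3B with 1 each).

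Of the 14 probe sets, 10 passed the filters on background and on replicate spread, 5 for each compartment, and these stand for 8 symbols. The 4 others had mean levels below background. They were both probe sets of FAD2-1A, an oleate desaturase best known from soybean seed, 1 of the FAD3C probe sets and 1 of the FAD8.2 probe sets. Where a symbol has several tested probe sets, they are told apart by their Affymetrix suffix (_at, _a_at or _s_at), of which _s_at marks probes that may match several transcripts. Background was the 95th percentile of the mean log2 intensity of the probe sets for 2 soybean pathogens, 3.91 or an intensity of 15.1. Among these 4, an FAD2-1A value of 16.3 on 12 h replicate 2 was the only value above its own array's background.

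The 2 arrays 0.5 h replicate 1 and 12 h replicate 2 stood apart with the lowest hybridization controls, at mean log2 values of 9.45 and 9.29, where the 12 others lay between 10.09 and 10.75. Replicate arrays correlated at 0.931 (12 h) to 0.984 (6 h) over the 28567 probe sets tested. Among markers of other tissues, the 10 green tissue probe sets found by symbol (CAB3, a light-harvesting protein, and PSAD, a photosystem subunit) had a mean log2 level of 7.10 to 7.34 on the 0 h arrays, 6.13 to 6.36 at 6 h, 5.24 to 5.44 at 12 h and 7.40 to 7.87 at 24 h, with 3 of the 10 below background. The 6 root probe sets (nitrate and phosphate transporters and PRP1) were all above background, at 8.56 to 9.53 over all arrays. Of 8 nodule probe sets the 3 of NMH7 were below background, and the list lay between 4.84 and 6.57. LBD23 entered that list by its letters only. The 18S rRNA probe set, at log2 values of 8.04 to 8.54 at 0 h, was highest at 3 h (10.01 to 10.54) and 6 h (11.08 to 11.24) and lay between 6.57 and 9.57 on all other stress arrays, and its part in the 3 and 6 h desaturase values was not tested.

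Comparisons used limma on log2 intensities, and a probe set was called when its p was below 0.05 and its Benjamini-Hochberg adjusted p over the 28567 probe sets was below 0.15. Against 0 h the called changes lay between -3.51 and 0.88 on the log2 scale. The lowest were those of FAD7-2, a plastid desaturase that makes linolenate. The ER members FAD2-2 and FAD2-3 were called higher at 0.5 h and, on 1 probe set each, at 6 h. The plastid members FAD6.1 and FAD8.2 were called lower at 6 and 12 h, FAD8.2 on 1 of its 2 tested probe sets, and rose again from 12 to 24 h.

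**Figure D1:**
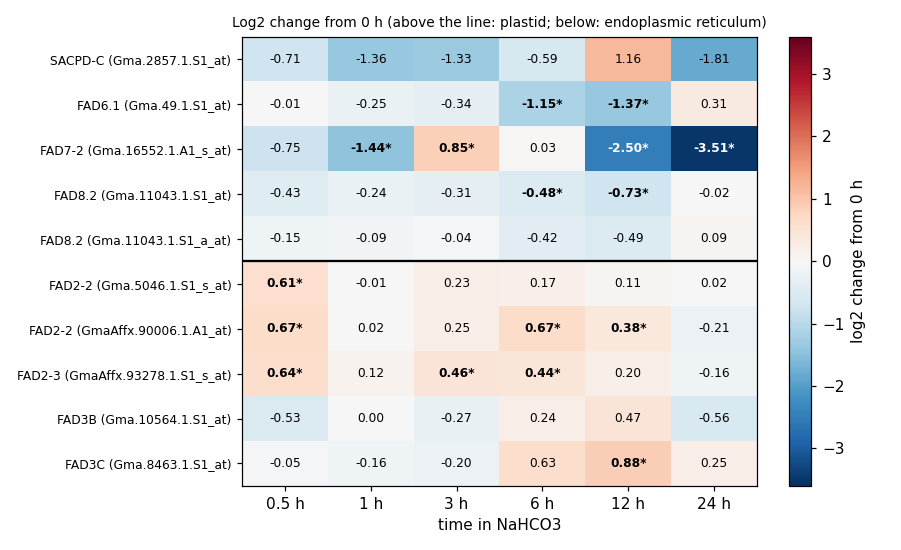
Log2 change from 0 h (colour and number) of the 10 tested desaturase probe sets at each stress time, from 2 arrays a time, with an asterisk and bold type for called changes. FAD7-2 holds both the lowest value (-3.51 at 24 h) and a called rise (0.85 at 3 h), and no ER member was called lower against 0 h.

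FAD7-2 (1 probe set, _s_at) was measured at intensities of 82.3 and 140.0 on the 0 h arrays, 74.1 and 54.8 on the 0.5 h arrays, and 44.9 and 34.7 on the 1 h arrays. At 3 h the arrays read 204 and 183, above both 0 h arrays, and at 6 h they read 108 and 112, inside the 0 h range. The 12 h arrays read 16.2 and 22.4 and the 24 h arrays 7.56 and 11.7. All 4 late arrays therefore lay below every earlier array. Transcripts of closely related desaturases that match its probes would add to its signal.

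Against 0 h, FAD7-2 fell by 1.44 at 1 h on the log2 scale (SE 0.30, n = 2 arrays a time, limma adjusted p = 0.145), was 0.85 higher at 3 h (SE 0.30, adjusted p = 0.128), and stood 0.03 from the 0 h level at 6 h (adjusted p = 0.961). It fell by 2.50 at 12 h (limma adjusted p = 0.000781) and stood at -3.51 at 24 h (adjusted p = 0.000233). The change of -0.75 at 0.5 h did not pass (limma adjusted p = 0.252). Both 24 h values were under their arrays' background of 21.3 and 26.5, so the level there is only a bound, and FAD7-2 was at least 4.52-fold lower at 24 h than at 0 h. At 12 h replicate 1 was under its background of 18.7 and replicate 2 was above its own of 13.5. In these bulk roots, fewer cells that express a gene and less of its RNA per cell cannot be told apart. The 1 h call was lost under 16 of 26 alternative settings and the 3 h call under 8, whereas those at 12 and 24 h were lost only with the methods' t-test.

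Between consecutive stress times FAD7-2 rose by 2.29 from 1 to 3 h (SE 0.30, limma adjusted p = 0.0118), a 4.9-fold change, and it was the only member called in that interval, against 5.51% of all tested probe sets called higher and 11.6% called lower. It fell by 2.53 from 6 to 12 h (limma adjusted p = 0.000668), again as the only member, where 15.3% of all probe sets were called higher and 18.6% lower. Since both 24 h arrays and 1 of the 12 h arrays were below background, no further fall from 12 to 24 h could be measured.

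**Figure D2:**
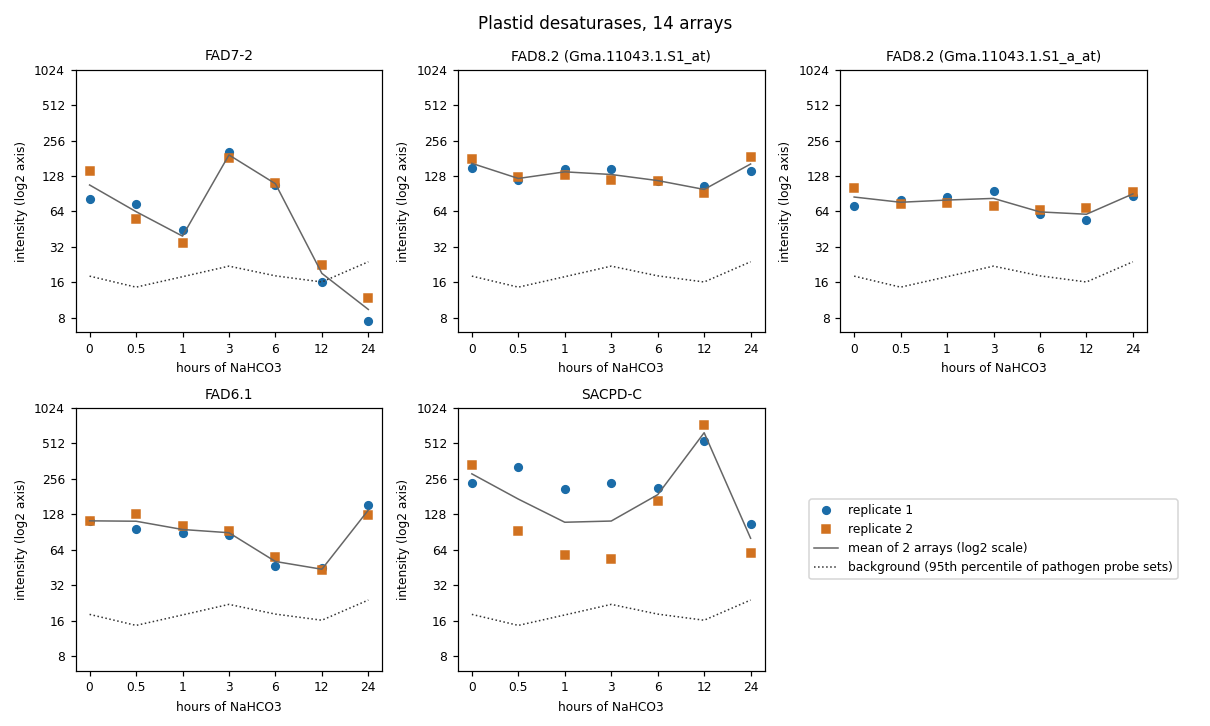
Intensity (log2 axis) of the 5 tested plastid desaturase probe sets on each of the 14 arrays against hours of NaHCO3, with the mean of the 2 arrays as a line and the background as a dotted line (mean of the 2 arrays' 95th percentiles). FAD7-2 peaks at 204 and 183 at 3 h and ends under the dotted line at 7.56 and 11.7, and the SACPD-C replicates part between 0.5 and 3 h.

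FAD8.2, the other plastid linolenate-forming enzyme (in Arabidopsis a cold-responsive partner of FAD7), moved far less. Its _at probe set read 150.0 and 179 on the 0 h arrays, 117 on both 6 h arrays, 105 and 92.2 on the 12 h arrays, and 140.0 and 187 on the 24 h arrays. On the 0.5, 1 and 3 h arrays it read between 119 and 147. All arrays from 0.5 to 12 h therefore lay below both 0 h arrays, and the 24 h arrays spanned them. At 0.5 h the change of -0.43 was not called (limma adjusted p = 0.286). The change was -0.48 at 6 h (SE 0.19, limma adjusted p = 0.135) and -0.73 at 12 h (adjusted p = 0.0283), followed by a rise of 0.71 from 12 to 24 h (adjusted p = 0.0284). The 6 h call was lost without any single array of 0, 1, 3 or 6 h, the 12 h call without 0 h replicate 2, and the late rise without 24 h replicate 2. The _a_at probe set, made from the same sequence, stood at -0.42 and -0.49 at 6 and 12 h without a call (limma adjusted p = 0.252 and 0.168) and rose by 0.57 from 12 to 24 h (adjusted p = 0.0912), a call lost without 12 h replicate 1 or either 24 h array. The time means of FAD8.2 did not follow those of FAD7-2, with r = -0.014 and -0.024 over the 7 times.

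FAD6.1 (1 probe set, _at), the plastid oleate desaturase, read 113 and 112 on the 0 h arrays, and between 86.0 and 129 on the 6 arrays of 0.5, 1 and 3 h. The 6 h arrays then read 46.8 and 55.1, the 12 h arrays 44.4 and 42.9, and the 24 h arrays 152 and 127. The 6 and 12 h arrays lay below all others, and the 24 h arrays above both 0 h arrays. FAD6.1 changed by -1.15 at 6 h (SE 0.18, limma adjusted p = 0.00468) and by -1.37 at 12 h (adjusted p = 0.00114), where it was 2.58-fold lower, and rose by 1.67 from 12 to 24 h (SE 0.18, adjusted p = 0.000353). From 3 to 6 h it fell by 0.81 (limma adjusted p = 0.0344), a call lost without 3 h replicate 2 or 6 h replicate 1. At 24 h its change of 0.31 was not called (limma adjusted p = 0.297), but it was called higher with quantile normalization (0.47) and with arrays centred on their median (0.53). FAD6.1 and FAD8.2 had like time courses, at r = 0.853 and 0.954 over the 7 time means for the 2 FAD8.2 probe sets, as a description.

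SACPD-C (1 probe set, _at), which places the first double bond and is known in soybean for seed stearate content and for its part in nodules, was the most variable member. It read 238 and 334 on the 0 h arrays, and over 0.5, 1 and 3 h replicate 1 stood at 321, 209 and 236 while replicate 2 stood at 92.3, 57.3 and 53.2. The 6 h arrays read 212 and 166, the 12 h arrays 540.0 and 736, and the 24 h arrays 106 and 60.4. The 12 h arrays were above and the 24 h arrays below both 0 h arrays. With an SE of 0.79, neither the 1.16 at 12 h nor the -1.81 at 24 h was called (limma adjusted p = 0.378 and 0.165), and only the change of -2.98 from 12 to 24 h passed (adjusted p = 0.0307), which was lost without 24 h replicate 2. The 24 h fall was called under 11 of the 26 alternatives and the rise of 1.75 from 6 to 12 h under 13. The nodule probe sets had their highest mean log2 level on the same 12 h arrays, at 6.43 to 6.57. It was 5.90 to 6.24 at 0 h and 5.62 to 5.66 at 24 h. Only 3 of these 8 probe sets passed the filters, LBD23 among them. At 12 h none of the 3 was called, with a median change of -0.11 and ENOD40B at 0.43 (SE 0.68). ENOD93 and ENOD55-2 were above background but did not pass the filter on replicate spread. The part of the nodule probe sets in the SACPD-C values was not tested.

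Among the ER members, FAD2-2 and FAD2-3, oleate desaturases found throughout the plant, were the brightest. The _at probe set of FAD2-2 read 1031 and 997 on the 0 h arrays, 1580.0 and 1656 on the 0.5 h arrays, 1143 and 930.0 on the 1 h arrays, and 1273 and 1147 on the 3 h arrays. The 6 h arrays read 1600.0 and 1619, the 12 h arrays 1280.0 and 1365, and the 24 h arrays 832 and 926. The 0.5 and 6 h arrays were clear of all others, and the 24 h arrays lay below both 0 h arrays. It was 0.67 higher at 0.5 h (SE 0.15, limma adjusted p = 0.0644), 0.67 higher at 6 h (adjusted p = 0.0221) and 0.38 higher at 12 h (adjusted p = 0.13), and fell by 0.59 from 12 to 24 h (adjusted p = 0.0265). The 6 h rise was the only one of 28 member calls kept under all 26 alternatives, and the 12 h call was lost without any single array of 0, 3, 6 or 12 h.

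The _s_at probe set of FAD2-2 read 906 and 930.0 on the 0 h arrays and 1432 and 1379 on the 0.5 h arrays, and from 1 h on its arrays lay between 811 and 1085. It was 0.61 higher at 0.5 h (SE 0.16, limma adjusted p = 0.0948) and was not called at any later time, so the probe sets of FAD2-2 parted at 6 h, where this one stood at 0.17 (adjusted p = 0.551). FAD2-3 (1 probe set, _s_at) read 927 and 808 on the 0 h arrays, 1269 and 1442 on the 0.5 h arrays, 1195 and 1185 on the 3 h arrays, 1135 and 1220.0 on the 6 h arrays, and 737 and 813 on the 24 h arrays. Its arrays from 0.5 to 6 h lay above both 0 h arrays, those of 1 h only just, at 946 and 935. At 1 h its change of 0.12 was not called (limma adjusted p = 0.933). It was 0.64 higher at 0.5 h (SE 0.15, limma adjusted p = 0.0761), 0.46 higher at 3 h (adjusted p = 0.109) and 0.44 higher at 6 h (adjusted p = 0.101), and fell by 0.36 from 12 to 24 h (adjusted p = 0.137), a call lost under 18 of the 26 alternatives. All 3 calls at 0.5 h were lost without either 0 h array or without 0.5 h replicate 1, which is a low-control array. The 3 h call of FAD2-3 was lost without any single array of 0, 3 or 6 h, its 6 h call without any of 0 or 6 h, and both with quantile normalization.

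The ER linoleate desaturases FAD3B and FAD3C were dimmer. The tested FAD3C probe set read 31.2 and 30.7 on the 0 h arrays, 43.9 and 52.4 on the 6 h arrays, 70.1 and 46.4 on the 12 h arrays, and 40.8 and 33.0 on the 24 h arrays, and from 0.5 to 3 h it lay between 22.5 and 36.2. The 6 and 12 h arrays were above all others. It was 0.88 higher at 12 h (SE 0.29, limma adjusted p = 0.078), lost without 0 h replicate 1, 0 h replicate 2 or 12 h replicate 1, and rose by 0.83 from 3 to 6 h (adjusted p = 0.143), a call lost without any single array of 0, 3, 6 or 24 h. At 6 h its change against 0 h was 0.63 (limma adjusted p = 0.211). FAD3B read 163 and 191 on the 0 h arrays, 322 and 185 on the 12 h arrays, and 133 and 107 on the 24 h arrays. One of its 12 h arrays lay above the 0 h range and the other inside it. Both 24 h arrays lay below that range, as did both 0.5 h arrays, at 144 and 103. It was not called against 0 h at any time and fell by 1.03 from 12 to 24 h (SE 0.32, limma adjusted p = 0.0546), a call lost without 12 h replicate 1 or without 24 h replicate 2.

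**Figure D3:**
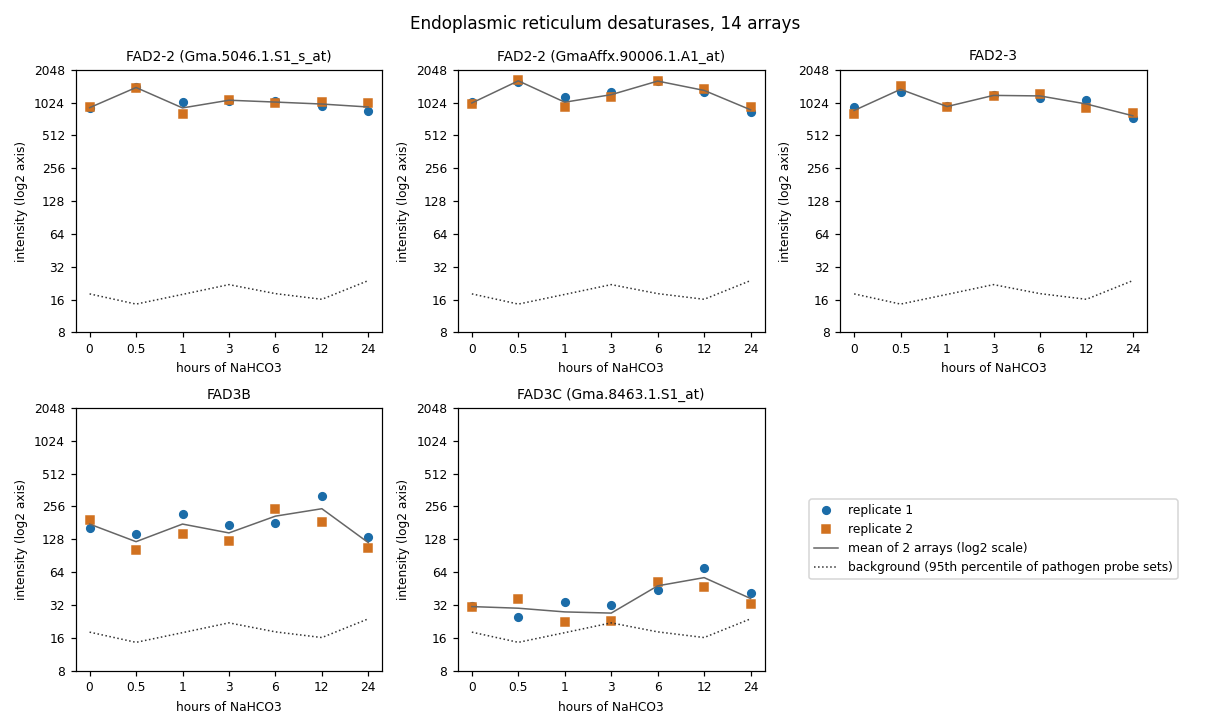
Intensity (log2 axis) of the 5 tested ER desaturase probe sets on each of the 14 arrays against hours of NaHCO3, with the mean of the 2 arrays as a line and the background as a dotted line. The probe sets of FAD2-2 and FAD2-3 stay between 737 and 1656, and FAD3C is highest at 12 h (70.1 and 46.4).

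Counted over the 10 tested members, 3 were called higher and none lower at 0.5 h, against 2.26% of all tested probe sets called higher and 3.27% called lower. These 3 were all of FAD2-2 and FAD2-3, so they do not stand for 3 separate genes. At 1 h none was called higher and 1 lower (0.179% and 0.375% of all). At 3 h 2 were higher and none lower (5.0% and 12.0%). At 6 h 2 were higher and 2 lower (8.67% and 12.1%), and at 12 h 2 were higher and 3 lower (7.95% and 16.4%). At 24 h none was higher and 1 lower (6.07% and 19.6%). From 3 to 6 h 1 rose and 1 fell (8.05% and 4.56%), and from 12 to 24 h 3 rose and 5 were called lower (12.1% and 19.8%), of which FAD7-2 went from 1 level at background to another below it. With so few members these counts describe the set, and the 6 comparisons with 0 h share their control arrays. A spline fit over time at an adjusted p below 0.001 called 2 members, FAD6.1 (limma adjusted p = 0.000196) and FAD7-2 (adjusted p = 0.000251), against 5.10% of all probe sets. With the methods' t-test and Benjamini-Hochberg adjustment, 1 member passed at 6 h and none in any other comparison. That test takes its spread from the arrays compared alone. The share of all probe sets that passed it is not given here, so its counts do not set the desaturases apart from other probe sets.

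By compartment, the median change of the 5 plastid probe sets was, in order of time, -0.43, -0.25, -0.31, -0.48, -0.73 and -0.02. That of the 5 ER probe sets was 0.61, 0.00, 0.23, 0.44, 0.38 and -0.16, and over all tested probe sets it was -0.02, -0.01, -0.14, -0.05, -0.04 and -0.13. In the same order the plastid median minus the ER median was -1.04, -0.25, -0.54, -0.93, -1.12 and 0.14. On single arrays the difference was -0.26 and 0.26 at 0 h, between -0.14 and -1.01 on all 10 arrays from 0.5 to 12 h, and 0.00 and 0.23 at 24 h. At 1 h the arrays, at -0.50 and -0.14, overlapped the 0 h range. Most of the ER probe sets are of FAD2-2 and FAD2-3, whose time means correlated at r = 0.745 to 0.897, so the ER median largely follows FAD2. FAD3B and FAD3C stood at -0.53 and -0.05 at 0.5 h and at -0.27 and -0.20 at 3 h, none of them called. The medians at these times therefore do not describe every ER member. The difference at 0.5 h was -0.23 without the filter on low values, with all 14 probe sets, and at 1 h it was -0.81 with 1 value per symbol. The sign at 24 h depends on how members are weighed, since it was -0.76 with 1 value per symbol and -0.86 as a mean over members, where FAD7-2 and SACPD-C count more. Of the called changes against 0 h, the plastid members held 8, of which 1 was a rise, and the ER members held 8, all rises. Over these times 0.179% to 8.67% of all tested probe sets were called higher and 0.375% to 19.6% lower. The tally counts a few genes repeatedly against the same 0 h arrays. FAD7-2 was called at 1, 3, 12 and 24 h. The ER calls were of FAD2-2 and FAD2-3 except FAD3C at 12 h, and FAD3B had none.

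**Figure D4:**
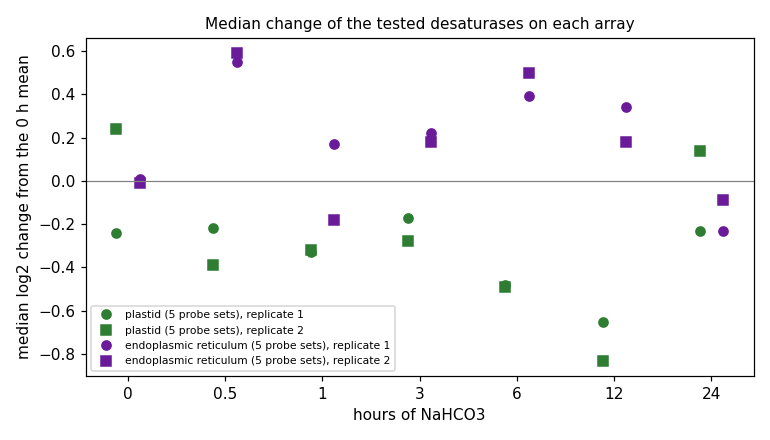
Median log2 change from the 0 h mean of the 5 plastid and the 5 ER desaturase probe sets, shown for each array (circles replicate 1, squares replicate 2) against hours of NaHCO3. The plastid points lie below the ER points on every array from 0.5 to 12 h and meet them at 24 h.

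Some probe sets outside the symbol rule are described as desaturases in the study's own tables, which were drawn from these arrays, so they are no independent support. A pair of them are described as chloroplast precursors of an omega-3 desaturase, the class of FAD7 and FAD8. The dimmer one read 367 and 507 on the 0 h arrays, 777 and 683 on the 3 h arrays, 82.6 and 96.4 on the 12 h arrays, and 67.6 and 42.4 on the 24 h arrays. The brighter one read 595 and 885 on the 0 h arrays, 1119 and 1125 on the 3 h arrays, 99.3 and 136 on the 12 h arrays, and 97.2 and 117 on the 24 h arrays. On every array both were brighter than background, with the 3 h arrays above and the late arrays below both 0 h arrays. In that order they changed by -2.27 and -2.64 at 12 h (SE 0.26 and 0.24, limma adjusted p = 0.000613 and 0.000183) and by -3.01 and -2.77 at 24 h (adjusted p = 0.000233 for each). Their time means correlated with those of FAD7-2 at r = 0.995 and 0.980 over 7 times, which ranked 3 and 31 among the 28567 probe sets with FAD7-2 itself first. All of these points share arrays and scaling.

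**Figure D5:**
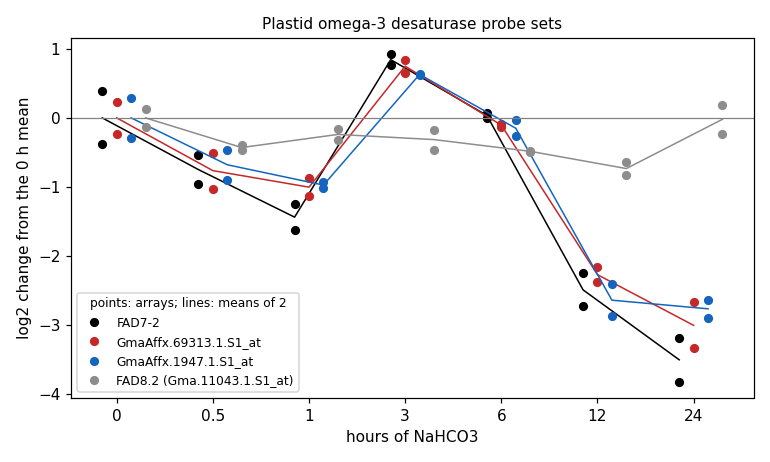
Log2 change from the 0 h mean of FAD7-2 (black), the 2 probe sets described as omega-3 desaturases (red the dimmer, blue the brighter) and the FAD8.2 _at probe set (grey), with points for arrays and lines for the mean of 2 arrays, against hours of NaHCO3. The first 3 are up at 3 h and far below the 0 h mean at 12 and 24 h (means from -2.27 to -3.51), where FAD8.2 stays at -0.73 and -0.02.

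Another probe set, described as a putative fatty acid desaturase, changed by -0.94 at 12 h and by -1.45 at 24 h (SE 0.20, limma adjusted p = 0.0124 and 0.00143). A probe set described as desaturase-like changed by -1.70 at 6 h and by -1.73 at 12 h (SE 0.36, adjusted p = 0.0166 and 0.0117) and was 0.90 higher at 24 h (limma adjusted p = 0.129). The stearoyl desaturases under other symbols, SAD2 and a probe set shared by SAD2 and ACPD, were not called against 0 h. SAD2 stood above its 0 h level at every stress time, between 0.10 (3 h) and 0.76 (12 h, SE 0.32, limma adjusted p = 0.152). The shared probe set lay between -0.22 (3 h) and 0.37 (12 h). Neither enters the plastid median, which was negative at 12 h.

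By the rule on likeness, the 5 probe sets with a single symbol whose 7 time means were most like those of FAD7-2 were those of LOC100306363 (r = 0.997), LOC100812618 (0.992 and 0.990 for 2 probe sets), LOC100170694 (0.991) and LOC100778559 (0.990), among 7388 compared. The 5 least like were led by LOC100783307 (r = -0.984) and included LOC100306607, LOC100805356 with 2 probe sets, and EDS5 (-0.968).

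The genes around the desaturases were taken from lists of symbols. Of 8 probe sets for plastid fatty acid synthesis (acetyl-CoA carboxylase subunits and KASII-A), all tested, none was called at 0.5, 1 and 6 h. ACCB-2 was called lower at 3 h (-0.51), ACCA-1 higher at 12 h (0.74), and ACCB-2 and ACCC-2 lower at 24 h (-0.57 each). The other ACCC-2 probe set was not called at 24 h (-0.43, limma adjusted p = 0.34). Of all tested probe sets, 12.0% were called lower at 3 h, 7.95% higher at 12 h and 19.6% lower at 24 h. ACCB-2 at 3 h and ACCA-1 are named after their values were seen. Of 9 probe sets for glycerolipid assembly, 8 were tested. DGD2, which makes the galactolipid digalactosyldiacylglycerol, was called higher at 0.5 h on 1 probe set (0.62), with 0.73 and 0.18 on its others without a call. At 24 h it was called higher with 2 probe sets (0.48 and 0.53) and its other one was not called. Of all tested probe sets, 2.26% were called higher at 0.5 h and 6.07% at 24 h.

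Lipoxygenases and the allene oxide synthases and cyclases of jasmonate synthesis, which can act on linolenate or on products made from it, had 24 tested probe sets of 29. Of these 11 were called higher and 1 lower at 6 h, with a median of 0.85 against -0.05 over all probe sets, led by VLXC (2.12, SE 0.31, limma adjusted p = 0.00339), LOX7 (1.56 on its _a_at probe set) and LOX10 (1.47). The 11 were probe sets of LOX7, LOX9, LOX10, VLXB, VLXC and AOC6 only, with LOX7, LOX9 and VLXB counted more than once. No allene oxide synthase was called higher at 6 h. The 1 lower was AOS1, on the probe set named below (-1.09 at 6 h, limma adjusted p = 0.0378). FAD7-2 stood at its 0 h level at that time. At 0.5 h, where FAD7-2 was not called, none was higher and 5 lower, against 2.26% and 3.27% of all tested probe sets. These include the same AOS1 probe set (-1.66, limma adjusted p = 0.025). At 1 h none was higher and 1 lower (0.179% and 0.375% of all), and at 3 h 1 was higher and none lower (5.0% and 12.0%). At 12 h 3 were higher and 5 lower, and at 24 h 2 were higher and 6 lower. The shares of all tested probe sets called higher at these times (6, 12, 24 h) were 8.67%, 7.95% and 6.07%, and those called lower were 12.1%, 16.4% and 19.6%. The allene oxide synthases AOS1 (the probe set that changed more) and AOS2 changed by -3.01 and -2.62 at 12 h (SE 0.28 and 0.32, limma adjusted p = 0.000217 and 0.000771) and by -2.45 and -2.21 at 24 h, times at which FAD7-2 was also low. AOC3, an allene oxide cyclase, fell by 1.52 at 24 h on its _at probe set (limma adjusted p = 0.00314). The cyclase AOC4 fell by 2.37 at 24 h (limma adjusted p = 0.00182), while AOC6 stood at -0.08 (adjusted p = 0.861). These synthase and cyclase values were chosen after they were seen.

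Of the 7 tested green tissue probe sets, 3 moved with part of this pattern, all of CAB3. These changed by -5.21 to -6.06 at 12 h and by -2.03 to -2.33 at 6 h, where FAD6.1 was also low, and at 24 h they stood at 0.58 to 0.67 without a call. The fourth CAB3 probe set stood at -0.03 at 6 h and -0.18 at 12 h, and those of PSAD lay between -0.86 and 0.08 at 6 h and between -0.10 and 0.21 at 12 h, none of them called. PSAD was called higher at 24 h on 1 probe set (1.25, limma adjusted p = 0.0188). FAD7-2 stayed low at 24 h while the 3 CAB3 probe sets did not, and the part of these markers in the desaturase values was not tested. The low-control arrays lie at 0.5 h and 12 h. Without both of them FAD7-2 at 12 h and at 24 h, FAD6.1 at 6 and 12 h and FAD2-2 at 6 h were still called, while the count at 0.5 h dropped from 3 to 1.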

How the data were processed

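The samples were 14 Affymetrix Soybean Genome arrays, 2 for each of 7 times. The deposited values are intensities that the authors computed in dChip from perfect-match probes only, after scaling 1 array of each time to the median of all arrays and fitting the other to it by invariant set. Differences between times beyond the shared median level are therefore not removed, and technical differences between times do not enter the SE. The dChip version is not given in the sources used here. Photoperiod and seedling age differ between the labels and the methods.

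Here intensities were floored at 1 and put on the log2 scale. Of the 37594 soybean probe sets, those above background (28727) with a median SD/mean of replicates between 0 and 0.5 were tested (28567; 160 removed). A single limma fit (R 4.3.3, limma 3.58.1) over all 14 arrays as 7 groups gave every comparison, with 7 residual and 3.24 prior degrees of freedom and a median SE of 0.236. Calls needed a two-sided p below 0.05 and a Benjamini-Hochberg adjusted p below 0.15, the limits of the methods, whose t-test was an alternative. The time course used a natural cubic spline with 4 degrees of freedom. The script was tested on simulated data. The number of arrays limits the precision, and no depth applies.

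Symbols came from the platform annotation that GEO holds, where 370 probe sets have several symbols and name no gene here. Members and gene lists were chosen with earlier results of these data known. Named genes were all members, up to 3 called probe sets of each list at its time with most calls, and the 5 most and 5 least like FAD7-2. Symbols for the electron donors of desaturases, phospholipases and oil body proteins matched no probe set. Genome positions and sequences were not analysed here. The authors' own comparisons were not used. Replicate numbers were not treated as pairs in the main fit. Alternatives were other scalings, offsets, filters, variance models, tests and limits, and each array left out. Figures were drawn with matplotlib 3.10.9.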

Additional observations from a re-analysis of the deposited data

Results flagged for a closer look

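These differences between stress times passed the limma limits for a member, which says that its change from 0 h differed between the 2 times (2 arrays a time). They were found among the 10 tested members over all consecutive stress times and over pairs of times with opposite calls. FAD7-2 differed by 2.29 between 1 and 3 h (SE 0.30, limma adjusted p = 0.0118), and by -2.53 between 6 and 12 h (adjusted p = 0.000668). Its fitted difference of -1.01 between 12 and 24 h lies at and below background, so it measures no fall, and its call was lost under 6 of 26 alternatives. Its call was higher at 3 h and lower at 12 and 24 h, with differences of -3.34 and -4.36 (limma adjusted p = 0.00012 and 2.43e-05), of which the second is set against a level below background. FAD6.1 differed by -0.81 between 3 and 6 h (SE 0.18, limma adjusted p = 0.0344) and by 1.67 between 12 and 24 h (adjusted p = 0.000353).

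In the same late interval FAD8.2 differed by 0.71 and 0.57 on its 2 tested probe sets (limma adjusted p = 0.0284 and 0.0912), SACPD-C by -2.98 (0.0307), FAD3B by -1.03 (0.0546), FAD2-2 on its _at probe set by -0.59 (0.0265) and FAD2-3 by -0.36 (0.137), a call lost under 18 of 26 alternatives. That FAD2-2 probe set also differed by -0.65 between 0.5 and 1 h (limma adjusted p = 0.133), and FAD3C by 0.83 between 3 and 6 h (adjusted p = 0.143). With 2 arrays a time, no array could be tested as an outlier within its group.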

How the results depend on the processing

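Over 100 member changes and 26 alternatives, 1 of 28 member calls was kept under all (FAD2-2 at 6 h), none changed direction, and 12 changes gained a call under some alternative. Of 1808 values called in neither fit, 52 changed sign. Counts of members called that moved by over 1.5 times are given by comparison, and the others moved by less. With quantile normalization they were 1 at 3 h, 2 at 24 h, 1 from 3 to 6 h and 2 from 6 to 12 h. With arrays centred on their median they were 2 at 24 h, 2 from 1 to 3 h and 2 from 6 to 12 h. With an offset of 16 they were 2 at 24 h, 4 from 3 to 6 h and 2 from 6 to 12 h. Without the filter on low values they were 0 at 1 h, 1 at 3 h (a fall of a member that the filter removes, with both rises lost) and 1 from 3 to 6 h, and without that on SD/mean 0 at 1 h. With the 99th percentile of background they were 4 from 3 to 6 h and 2 from 6 to 12 h. With a trend in the prior variance they were 2 at 24 h, 2 from 1 to 3 h and 2 from 6 to 12 h. With only the 4 arrays compared they were 0 at 0.5 h, 0 at 1 h, 2 at 24 h, 4 from 3 to 6 h, 2 from 6 to 12 h and 2 from 12 to 24 h. With the methods' t-test 1 was called at 6 h and 0 elsewhere. With an adjusted p below 0.05 they were 0 at 0.5, 1 and 3 h, 2 at 6 h, 3 at 12 h, 1 from 3 to 6 h and 5 from 12 to 24 h. Over the time course they were 4, where 0.05 is looser than the main limit of 0.001. Without 0.5 h replicate 1 and 12 h replicate 2 together they were 1 at 0.5 h, 0 at 1 h, 2 at 24 h and 1 over the time course. The cause was not tested, other than that fewer arrays or a stricter or looser limit enter by construction. The share of all probe sets called under each alternative is not given here, so these counts do not set the members apart from other probe sets.

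The replicate numbers were not treated as pairs in the main fit. The 21 correlations of same-numbered deviations ran from -0.349 to 0.295 with 6 over 0.1. They show no pairing common to all times, but do not settle whether some times share a replicate structure. With the replicate block the counts were 0 at 1 h, 2 at 24 h and 2 from 6 to 12 h, and among those that moved by less were 3 at 6 h, 4 at 12 h and 7 from 12 to 24 h.

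Leaving out each array in turn, the counts ranged from 0 to 3 at 0.5 h, 0 to 1 at 1 h, 0 to 2 at 3 h, 2 to 4 at 6 h, 2 to 5 at 12 h, 1 to 2 at 24 h, 0 to 4 from 3 to 6 h, 1 to 2 from 6 to 12 h, 3 to 9 from 12 to 24 h and 1 to 2 over the time course (1 without 0 h replicate 1). The plastid minus ER median ranged from -1.15 to -0.77 at 0.5 h, -0.50 to -0.14 at 1 h, -0.54 to -0.39 at 3 h, -1.22 to -0.70 at 6 h, -1.22 to -0.96 at 12 h and -0.10 to 0.34 at 24 h, where it turned negative without 0 h replicate 1. With quantile normalization it was -0.89, -0.32, -0.73 and -1.04 at 0.5, 3, 6 and 12 h, and without the filter on low values -0.23, -0.32, -0.66 and -1.04. At 12 h it was -1.03 with an offset of 16 and -0.99 without the low-control arrays. With 1 value per symbol it was -0.80, -0.81, -0.28, -1.35 and -0.76 at 0.5, 1, 3, 12 and 24 h, and as a mean over members -0.68, -0.67, -0.33, -1.19 and -0.86. Levels near background, as FAD7-2 at 12 and 24 h, are bounds.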
